A study of Mus musculus with 6 samples.

Results

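The genes described here are Phox2a, Hand2, Tubb3, Ret, Gfra2, Nrtn, Chrm1 and Vip, which stand for the identity of the parasympathetic ganglion, the neurturin signal that it receives, and the cholinergic and VIP cues of the embryonic submandibular gland (eSMG). They were chosen by gene symbol, and all 8 were found among the 23260 genes counted in each library and among the 13610 genes that passed the filter on low counts. The libraries came from whole eSMGs of ICR mice at embryonic day 14, which were cultured for 6 h without or with AMD3100 (50 µM), a drug that blocks the chemokine receptor CXCR4. Each of the 3 control and 3 AMD3100 libraries held RNA of up to 10 glands in a tube, with epithelium, mesenchyme, nerves and vessels together, and both groups shared the same explant culture, strain and age. The libraries held 9051595 to 14393031 counted reads from 3′ mRNA sequencing, in which each read stems from the 3′ end of a transcript. In such bulk samples, fewer neurons and less RNA per neuron cannot be told apart.

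The parasympathetic submandibular ganglion arises from neural crest cells that condense around the primary duct of the gland. Its neurons depend on neurturin, a ligand of the GDNF family that is made by the gland epithelium and is bound by the co-receptor GFRα2 together with the receptor tyrosine kinase RET. In return, the neurons release acetylcholine, which acts on epithelial progenitors through muscarinic receptors such as M1, and vasoactive intestinal peptide (VIP), which is known for its part in duct growth and lumen formation. Phox2a and Hand2 encode transcription factors of autonomic neurons, and Tubb3 encodes a β-tubulin of neurons.

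Expression is given as CPM, the counts of a gene scaled to the total of its library with TMM normalization, and groups as mean ± SD (n = 3 each). The log2 fold change (log2FC) sets AMD3100-treated over control eSMGs, with its standard error (SE), and was tested over all 13610 genes with edgeR's quasi-likelihood test and Benjamini-Hochberg adjustment. A gene with 3 counts lay between 0.173 and 0.368 CPM in the different libraries, a floor for counting error alone. Of the 13 markers of autonomic ganglion neurons examined, 12 had more than 3 counts in every library, and the exception was Isl1, with 0 counts in control replicate 1. This bar is low, as 10956 of the 23260 genes had at least 10 counts in every library. The list holds genes shared by other neurons, such as Stmn2 and Prph, and Hand2, Tubb3 and Ret are not particular to neurons. The counts of Phox2a may include reads of an overlapping gene, as described below. Some neuron genes outside these 13 did not pass 3 counts in every library. Chat had 0 counts in control replicate 3, and Chrnb4 had 0 and Nefh 1 in control replicate 1. Of the noradrenergic markers, which belong to sympathetic neurons, Th had at most 11 counts and Dbh at most 66 counts in any library, and Dbh had 0 counts in control replicate 1 and AMD3100 replicate 1. The summed level of the 5 markers, of which Ddc made up 90.6%, was 34.1, 35.9 and 67.4 CPM in control and 46.2, 38.7 and 91.6 CPM in AMD3100.

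No difference between AMD3100-treated and control eSMGs passed the test for any of the 8 genes. The study describes its results in general as those of independent experiments, but the labels do not say whether the tubes sequenced were separate cultures, and the p-values measure the spread between these tubes. With edgeR, 0 of the 8 had an adjusted p-value under 0.05, against 0% of all genes tested, and the adjusted p-value of each rounded to 1.0. At an unadjusted p-value under 0.05 with a fold change over 1.5, 0 of the 8 passed, against 1.68% (228) of all genes tested (0.397% of them with a higher and 1.28% with a lower level in AMD3100). The values of the groups overlapped for all 8 genes, whereas 7.44% of all genes tested had groups that did not overlap, 3.28% with AMD3100 higher and 4.17% with AMD3100 lower. The 95% interval of the log2FC included 0 for all 8. Chrm1, Nrtn, Vip, Tubb3 and Phox2a had a higher fitted level in AMD3100-treated eSMGs and Hand2, Ret and Gfra2 a lower one, where 52.2% of all genes tested had a higher one. The median log2FC of the 8 was 0.19, beside 0.02 over all genes tested. That median was -0.16 without AMD3100 replicate 3. DESeq2 also called 0 of the 8, and 0.0367% (5) of all genes, at an adjusted p-value under 0.05.

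**Figure D1:**
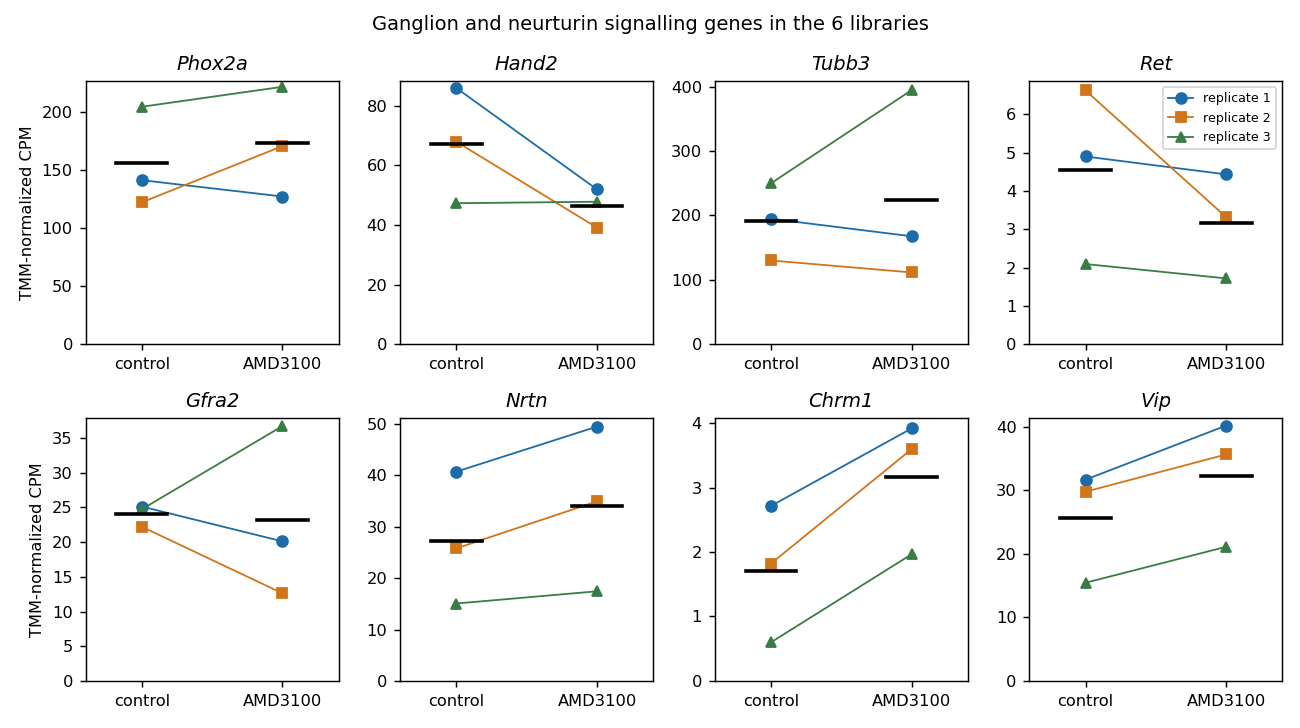
Expression of the 8 genes in TMM-normalized CPM (vertical axes, from 0) in control and AMD3100 libraries. Symbols and colours give the replicate number, lines join libraries of the same number, and black bars are group means. Nrtn, Chrm1 and Vip were higher in AMD3100 in all 3 same-numbered pairs, Ret was lower in all 3, and the replicate 3 libraries stood apart for most genes.

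Control and AMD3100 replicate 3 resembled each other, with deviations from the group means that correlated at 0.584. Replicates 1 and 2 were not matched by number, with 0.185 and 0.171 within numbers. Across numbers, control replicate 2 and AMD3100 replicate 1 correlated at 0.198, and control replicate 1 and AMD3100 replicate 2 at 0.146. The replicate number was also fitted as a block, although the labels state no pairing. With the block, 0 of the 8 genes passed both thresholds, against 4.39% (598) of all genes tested, and 0 of the 8 had an adjusted p-value under 0.05, against 0.022% (3). The block lowered the SE of the 8 genes except those of Ret and Chrm1, and Hand2 was the gene whose interval then left out 0. The adjusted p-values of the 8 genes lay between 0.723 and 0.958 with the block. When replicate 3 was dropped from both groups, which was tried after the data had been seen, the adjusted p-value of Hand2 was 0.413 in edgeR with the block, the lowest of any of the 8 genes in any fit.

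**Figure D2:**
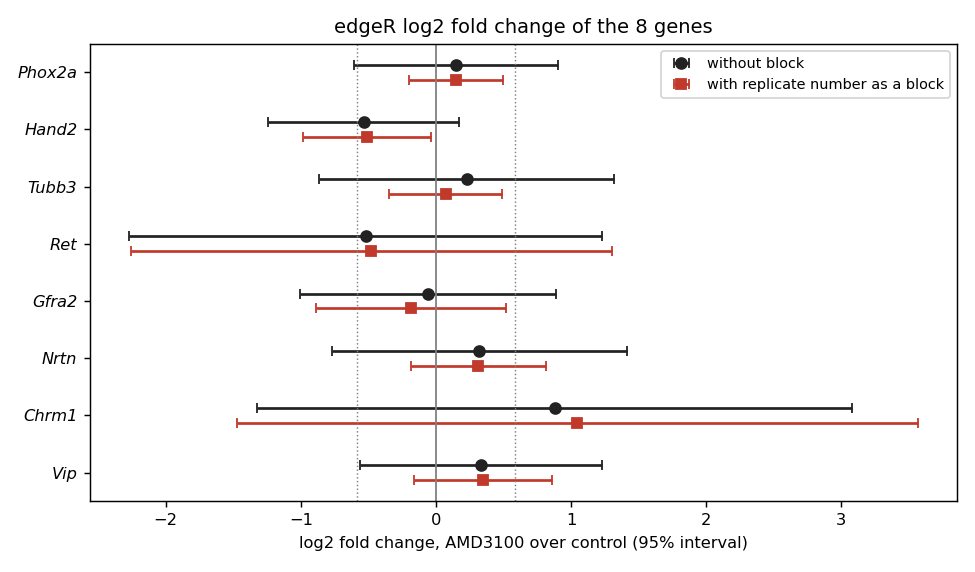
Log2 fold change of AMD3100-treated over control eSMGs (horizontal axis) for the 8 genes, from edgeR without a block (black circles) and with replicate number as a block (red squares), with 95% intervals. Dotted lines mark a fold change of 1.5. Without the block every interval includes 0, and with it that of Hand2 lies between -0.98 and -0.03.

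Hand2 encodes a basic helix-loop-helix factor of autonomic neurons that is also expressed in mesenchyme of the mandibular arch. In control eSMGs it stood at 85.9, 67.9 and 47.3 CPM in replicates 1, 2 and 3, and in AMD3100-treated eSMGs at 51.9, 39.1 and 47.8 CPM. Control replicates 1 and 2 were above every AMD3100 library, and control replicate 3 lay within the range of the AMD3100 libraries. The means were 67.0 ± 19.3 CPM in control and 46.3 ± 6.54 CPM in AMD3100, a log2FC of -0.53 (SE 0.31, 95% interval -1.24 to 0.17, edgeR unadjusted p = 0.122). The exact permutation test, two-sided, gave p = 0.3, where 0.1 is the smallest it allows with 3 libraries a group. With the block the log2FC was -0.51 (SE 0.21), with an unadjusted p of 0.0381 and an adjusted p of 0.723 in edgeR, and 6.66% of all genes had an unadjusted p-value under 0.05 in that fit. Within replicates 1 and 2 the log2FC was -0.77 with the block (edgeR unadjusted p = 0.00424), and in the replicate 3 pair the log2 ratio was 0.02. Leaving out control replicate 3 gave -0.73 (edgeR unadjusted p = 0.0425, adjusted p = 0.997). Without control replicate 1 the log2FC was -0.32 (edgeR unadjusted p = 0.383), and without AMD3100 replicate 2 it was -0.42 (edgeR unadjusted p = 0.293). With each library left out in turn it lay between -0.73 and -0.32. Hand2 lies on chromosome 8 from 57320983 to 57324517 (GRCm38.p6), and no other gene of the RefSeq table overlaps it.

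The promoter of Hand2 is shown because Hand2 had the lowest p-value of the 8 genes. It covers chr8:57320733-57321032 on the plus strand of GRCm38.p6, from 250 bases before to 50 bases after the RefSeq start, with TGACG, the core of the cyclic AMP response element, in capitals.
Hand2: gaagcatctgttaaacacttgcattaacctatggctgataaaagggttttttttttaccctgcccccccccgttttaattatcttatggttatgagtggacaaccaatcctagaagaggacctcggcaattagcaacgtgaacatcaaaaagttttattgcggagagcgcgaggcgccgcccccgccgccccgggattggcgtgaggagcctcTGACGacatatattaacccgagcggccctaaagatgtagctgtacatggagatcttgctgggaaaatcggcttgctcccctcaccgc
The core was searched on both strands, and 20.8% of all 32851 RefSeq promoters of the same length hold it. The TATA box letters TATAAA, which 13.6% of them hold, were not found in this window.

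Since Hand2 is also expressed in mandibular arch mesenchyme, markers of that tissue were read beside it. The summed level of 6 arch markers, of which Barx1 made up 95.7%, was 640, 670 and 169 CPM in control and 672, 686 and 128 CPM in AMD3100. Both replicate 3 libraries were low in this sum, and the groups overlapped. Hand2 was low in control replicate 3 and, in the AMD3100 group, at about the level of the other libraries. Of the 6 markers 4 were tested, 3 with a higher and 1 with a lower fitted level in AMD3100, and 0 passed an unadjusted p-value of 0.05. The log2FC was 0.89 for Dlx5 (SE 0.99), 0.09 for Msx1 (SE 1.35), 0.02 for Barx1 (SE 0.74) and -0.72 for Gsc (SE 0.45), all homeobox genes of the arch. With the block, Msx1 (-0.63), Barx1 (-0.09) and Gsc (-0.68) had a lower and Dlx5 (1.26) a higher fitted level, and the median log2FC of the markers went from 0.05 to -0.36. The part of arch mesenchyme in the values of Hand2 was not tested.

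Phox2a encodes a homeodomain factor needed by autonomic neurons. It stood at 142, 122 and 205 CPM in control and at 127, 171 and 222 CPM in AMD3100-treated eSMGs. The replicate 3 library was the highest of each group, and the groups overlapped. The log2FC was 0.15 (SE 0.33, 95% interval -0.60 to 0.90, edgeR unadjusted p = 0.661), and without AMD3100 replicate 3 it was -0.08.

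The counts of Phox2a need care, because its 3′ end is shared. On chromosome 7 of GRCm38.p6, Phox2a extends from 101818313 to 101822726 and Inppl1, which encodes an inositol phosphatase of broad expression, from 101822632 to 101838226, so that the genes overlap by 95 bases. GENCODE vM1 places Inppl1 on the opposite strand over the last 300 bases of Phox2a, and whether the authors' counting used strand is not given in the sources used here. Without strand, reads of these genes cannot be told apart where they overlap. The ratio of Phox2a to Inppl1 counts was 0.707, 0.690 and 0.657 in control and 0.739, 0.747 and 0.700 in AMD3100. It stayed within a narrow range in all 6 libraries. Among 10240 genes with a mean of at least 5 CPM, Inppl1 ranked 2 by the likeness of its profile over the 6 libraries to that of Phox2a, at a root mean square distance of 0.06 on the log2 scale after centring each gene. The nearest was Fam178a, at 0.05, and Anapc4 was the third. How much of the count of Phox2a stems from Inppl1 was not tested.

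**Figure D3:**
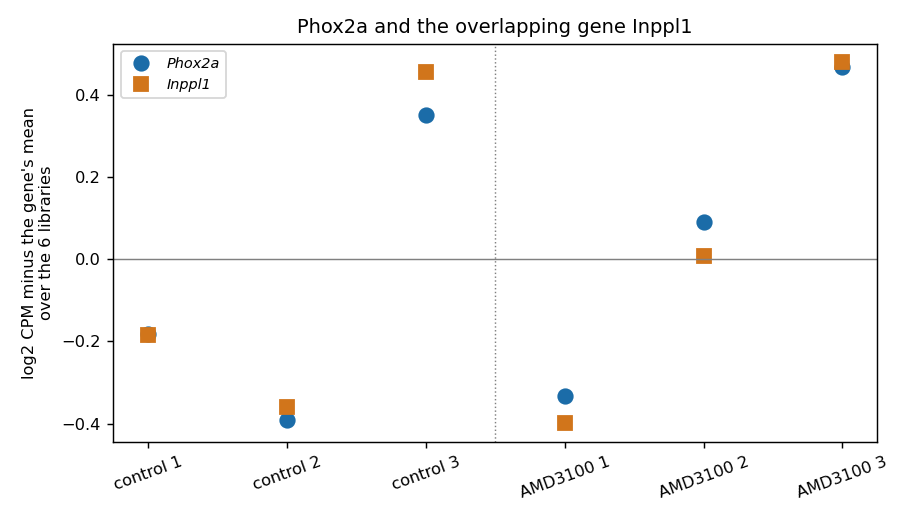
Log2 CPM of Phox2a (circles) and Inppl1 (squares) minus the mean of each gene over the 6 libraries (vertical axis), for each library (horizontal axis). Phox2a and Inppl1 lie close together in every library, and both are highest in the replicate 3 library of each group.

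Of 9 autonomic transcription factors listed, 6 were tested, 2 with a higher and 4 with a lower fitted level in AMD3100, and 0 passed an unadjusted p-value of 0.05. Their median log2FC was -0.08, beside 0.02 over all genes tested, and 0.06 with the block. Isl1, a factor of differentiating neurons, was counted 0, 59 and 19 times in control and 13, 10 and 14 times in AMD3100, an estimate of -0.88 on the log2 scale with an SE of 1.54, which turned to 0.22 with the block and 0.25 without control replicate 2.

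Tubb3 stood at 195, 130 and 250 CPM in control and at 168, 111 and 394 CPM in AMD3100-treated eSMGs. The highest library of all was AMD3100 replicate 3 and the lowest AMD3100 replicate 2, so that the AMD3100 group enclosed the control group. Its log2FC was 0.23 (SE 0.48, edgeR unadjusted p = 0.646), but -0.47 without AMD3100 replicate 3 and -0.22 with replicates 1 and 2 only. When 11 reads of 50 bases were simulated along its 3′ end, 45.5% of them also fitted elsewhere in the genome, so that the counts may be split with other loci. Among the other β-tubulins, the same holds for Tubb2b, with 72.7%, and Tubb2a, with 36.4%. Tubb3 lies on chromosome 8 from 123411553 to 123422015. Of 8 β-tubulins, 7 were tested and 0 passed an unadjusted p-value of 0.05.

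The 23 pan-neuronal genes all passed the filter, 14 with a higher and 9 with a lower fitted level in AMD3100. Their median log2FC was 0.06, but -0.12 without control replicate 3, -0.11 without AMD3100 replicate 3 and -0.02 without AMD3100 replicate 1, and 0 of the 23 passed an unadjusted p-value of 0.05. Stmn2, a microtubule regulator of growing neurites, was at 199, 164 and 205 CPM in control and 179, 151 and 241 CPM in AMD3100, a log2FC of 0.01 (SE 0.29). It varied little between libraries and groups. Prph, an intermediate filament of peripheral neurons, was at 164, 160 and 281 CPM in control and 183, 112 and 483 CPM in AMD3100, and had the same highest and lowest libraries as Tubb3. Gap43, a protein of growth cones, was instead low in replicate 3, with 558 and 790 counts in these libraries and at least 2064 in each other library. Of the 23 genes, 5 had the lowest library of each group in replicate 3 and 5 the highest, against 25.5% and 27.9% of all genes tested.

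**Figure D4:**
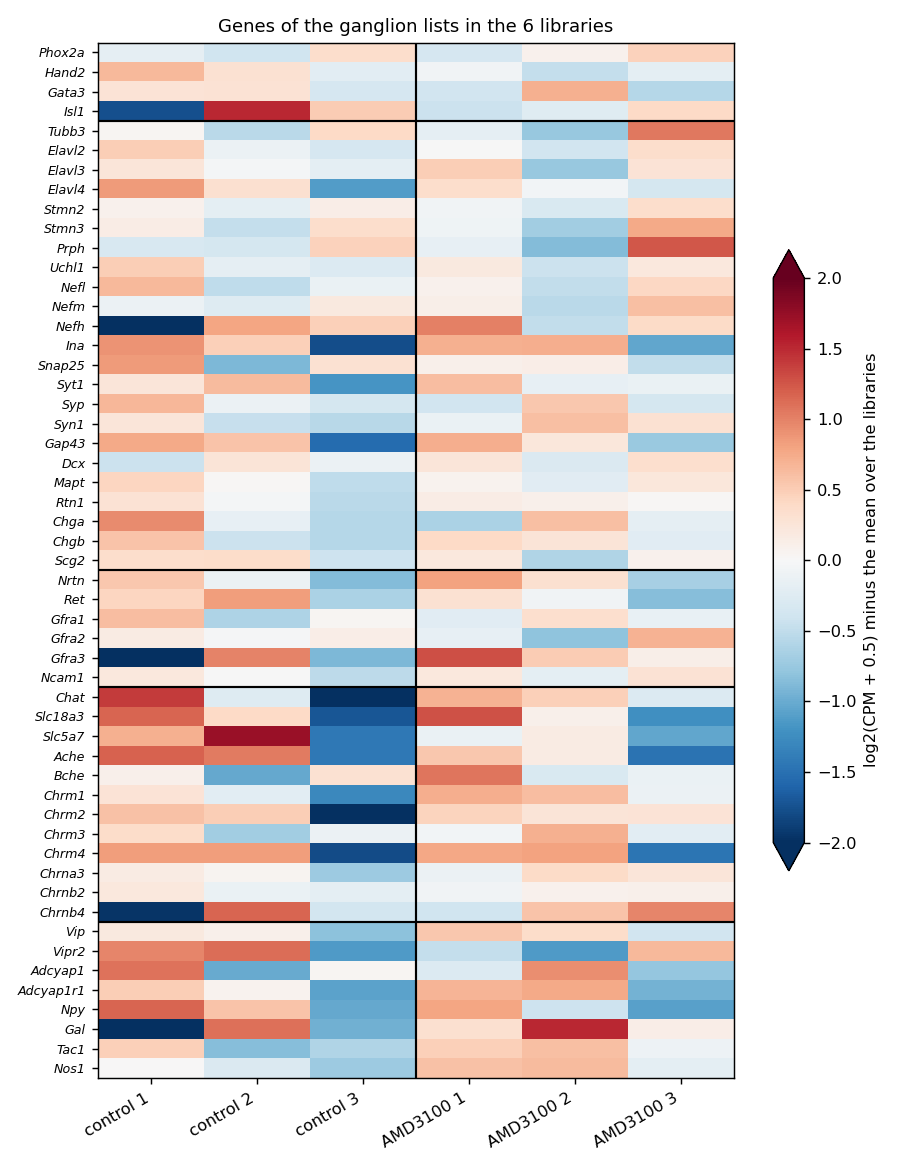
Expression of the tested genes reported here from 5 lists (rows, separated by lines: autonomic transcription factors, pan-neuronal genes, GDNF family, cholinergic genes, neuropeptides and receptors) in the 6 libraries (columns). Colour is log2(CPM + 0.5) minus the mean over the libraries, cut at -2 and 2. In 6 of the 12 cholinergic genes the replicate 3 library is the lowest of each group, as in 25.5% of all genes tested.

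Neurturin, the ligand, was read from Nrtn. It stood at 40.7, 25.8 and 15.1 CPM in control and at 49.5, 34.9 and 17.4 CPM in AMD3100-treated eSMGs. Each AMD3100 library was above the control library of the same number, while the spread between replicate numbers was larger than the difference within any pair. The means were 27.2 ± 12.9 and 34.0 ± 16.0 CPM, a log2FC of 0.32 (SE 0.48, 95% interval -0.77 to 1.41, edgeR unadjusted p = 0.519). With the block it was 0.31 (SE 0.22, edgeR unadjusted p = 0.192), and without AMD3100 replicate 1 it was -0.05. Nrtn lies on chromosome 17 from 56751323 to 56757548, and no other gene overlaps it.

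RET is the signalling receptor for all ligands of the GDNF family. Ret was counted only 56, 91 and 21 times in control and 77, 36 and 14 times in AMD3100, or 4.90, 6.63 and 2.09 CPM and 4.44, 3.32 and 1.72 CPM. Each AMD3100 library was below the control library of its number, and replicate 3 was the lowest of either group. The log2FC was -0.52 with an SE of 0.77 (95% interval -2.27 to 1.23, edgeR unadjusted p = 0.519). The interval spanned differences in either direction. The log2FC was -0.86 without control replicate 3 and -0.14 without control replicate 2, the ends of its range with each library left out. Ret lies on chromosome 6 from 118151748 to 118197744.

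Gfra2, the co-receptor that binds neurturin, stood at 25.1, 22.2 and 24.7 CPM in control and at 20.1, 12.6 and 36.7 CPM in AMD3100-treated eSMGs. The control libraries lay close together, and the AMD3100 libraries lay on both sides of them. The log2FC was -0.06 (SE 0.42, 95% interval -1.0 to 0.89, edgeR unadjusted p = 0.896) and ranged from -0.56 to 0.25 with each library left out in turn. Among the 8 genes, Tubb3 had the profile nearest to that of Gfra2, at a distance of 0.29, while Fam50a lay at 0.07 from Gfra2. Gfra2 was at its highest in AMD3100 replicate 3, where Ret, the other part of the neurturin receptor, was at its lowest. Gfra2 lies on chromosome 14 from 70890107 to 70979840. Gm34588, a long non-coding RNA gene, overlaps it by 17535 bases and has no counts of its own here.

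Of 10 genes for GDNF family ligands and receptors, 6 were tested, 3 with a higher and 3 with a lower fitted level in AMD3100, and 0 passed an unadjusted p-value of 0.05. The other ligands had few reads, with at most 12 counts of Gdnf, 23 of Artn and 1 of Pspn in any library, so that Nrtn was the ligand of the family that could be tested. Gfra1, the co-receptor of GDNF, was at 36.9, 15.3 and 24.6 CPM in control and 20.3, 30.2 and 21.5 CPM in AMD3100, a log2FC of -0.09 (SE 0.40). Gfra3 had 0 counts in control replicate 1 and 49 in control replicate 2, and its log2FC was 1.04 with an SE of 1.47. Ncam1, an adhesion molecule that can act as an alternative receptor, had a log2FC of 0.19 (SE 0.31).

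Chrm1, which encodes the M1 muscarinic receptor, had the largest fitted difference of the 8 genes and the fewest reads. It was counted 31, 25 and 6 times in control and 68, 39 and 16 times in AMD3100, or 2.71, 1.82 and 0.598 CPM and 3.92, 3.59 and 1.96 CPM. All 3 pairs were higher in AMD3100, and AMD3100 replicate 3 lay between the control libraries. The means were 1.71 ± 1.06 and 3.16 ± 1.05 CPM, a log2FC of 0.88 (SE 0.97, 95% interval -1.32 to 3.08, edgeR unadjusted p = 0.388), and an exact two-sided permutation test gave p = 0.2. The log2FC lay between 0.48 and 1.37 with each library left out. Chrm1 lies on chromosome 19 from 8664005 to 8683606.

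Of 15 cholinergic genes, 12 were tested, 9 with a higher and 3 with a lower fitted level in AMD3100. Their median log2FC was 0.19, and 0 passed an unadjusted p-value of 0.05. The median was -0.10 without control replicate 3 and -0.14 without AMD3100 replicate 1, but 0.37 with the block and 0.48 with limma-voom. In edgeR 1 cholinergic gene passed both thresholds without control replicate 3, where 547 of all 14256 genes tested did. Without AMD3100 replicate 3, 1 cholinergic gene passed, beside 451 of all 14260 genes tested. Slc18a3, the vesicular acetylcholine transporter, was at 21.4, 12.5 and 2.49 CPM in control and 23.0, 10.05 and 3.68 CPM in AMD3100, a log2FC of 0.02 (SE 0.81). Ache, which encodes acetylcholinesterase, was at 13.5, 12.2 and 1.80 CPM in control and 8.53, 6.45 and 1.72 CPM in AMD3100. The groups overlapped for both genes, and the replicate 3 libraries were far below the others. Of the 12 genes, 6 had the lowest library of each group in replicate 3 and 0 the highest, against 25.5% and 27.9% of all genes tested. Slc5a7, the choline transporter, had a log2FC of -1.19 (SE 0.89, edgeR unadjusted p = 0.216), which was -0.76 with the block and between -1.70 and -0.29 with each library left out, the last without control replicate 2. Chat, the enzyme that makes acetylcholine, was counted 57, 17 and 0 times in control and 50, 26 and 10 times in AMD3100, with a log2FC of 0.07 (SE 1.45).

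Chrm4, which encodes the M4 muscarinic receptor, made up 75.6% of the summed level of the list and is another gene with a shared 3′ end. It stood at 217, 215 and 34.5 CPM in control and 208, 212 and 43.7 CPM in AMD3100. Mdk, the gene of the growth factor midkine, runs against it from the other strand in GENCODE vM1, and on GRCm38.p6 the genes overlap by 31 bases. Mdk stood at 727, 771 and 216 CPM in control and 666, 727 and 219 CPM in AMD3100, so that both genes were low in both replicate 3 libraries. The ratio of Chrm4 to Mdk counts was between 0.279 and 0.313 in replicates 1 and 2 and 0.160 and 0.199 in replicate 3, and Mdk ranked 143 among 10240 genes by the likeness of its profile. The part of Mdk in the count of Chrm4 was not tested. Inppl1 and Mdk were named after their values were seen, because of their overlaps.

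Vip, the gene of vasoactive intestinal peptide, stood at 31.7, 29.8 and 15.5 CPM in control and at 40.2, 35.7 and 21.1 CPM in AMD3100-treated eSMGs. As for Nrtn, each AMD3100 library was above the control library of the same number, and the replicate 3 libraries were the lowest. The means were 25.6 ± 8.88 and 32.3 ± 9.97 CPM, a log2FC of 0.33 (SE 0.40, 95% interval -0.56 to 1.23, edgeR unadjusted p = 0.419). With the block it was 0.35 (SE 0.23), with an adjusted p of 0.826 in edgeR. With each library left out the log2FC of Vip lay between 0.08 and 0.55, the lowest without control replicate 3. Vip and Nrtn had the nearest profiles to each other among the 8 genes, at a distance of 0.24, although many other genes of the table lay nearer to each, such as Dab2ip at 0.07 from Vip and Fam213a at 0.11 from Nrtn. Vip lies on chromosome 10 from 5639193 to 5647617.

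The promoters of Vip and Nrtn are shown because these genes had similar values over the libraries. That of Vip covers chr10:5638968-5639267 on the plus strand and that of Nrtn chr17:56757499-56757798 on the minus strand of GRCm38.p6, both 5′ to 3′ for the gene, with TGACG and TATAAA on either strand in capitals.
Vip: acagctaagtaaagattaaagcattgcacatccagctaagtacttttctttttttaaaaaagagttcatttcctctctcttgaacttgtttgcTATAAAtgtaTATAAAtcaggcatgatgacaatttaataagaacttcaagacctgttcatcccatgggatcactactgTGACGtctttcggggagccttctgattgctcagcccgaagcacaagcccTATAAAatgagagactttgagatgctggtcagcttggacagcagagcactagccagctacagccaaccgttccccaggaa
Nrtn: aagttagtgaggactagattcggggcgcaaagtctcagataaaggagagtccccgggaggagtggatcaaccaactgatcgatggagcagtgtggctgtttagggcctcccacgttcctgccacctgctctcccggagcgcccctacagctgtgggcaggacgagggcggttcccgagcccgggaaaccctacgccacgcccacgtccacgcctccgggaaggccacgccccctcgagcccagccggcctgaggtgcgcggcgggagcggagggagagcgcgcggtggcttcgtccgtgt
In the window of Vip, TATAAA was found 3 times and TGACG 1 time, and neither was found in that of Nrtn. Of the 8 genes, 5 had a promoter in the RefSeq table, and Hand2 and Vip were those with TGACG. These matches describe the letters of the windows and not binding.

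Of 10 genes listed under neuropeptides and their receptors, which include the enzyme gene Nos1, 8 were tested. Of these 8, 5 had a higher and 3 a lower fitted level in AMD3100, and their median log2FC was 0.36. Adcyap1r1, the receptor of the related peptide PACAP, was at 60.1, 44.6 and 19.9 CPM in control and 68.0, 72.2 and 21.7 CPM in AMD3100, a log2FC of 0.38 (SE 0.53). Nos1, the neuronal nitric oxide synthase found in many VIP neurons, was at 15.2, 12.3 and 8.98 CPM in control and 23.1, 23.9 and 13.3 CPM in AMD3100. It was higher in all 3 pairs, and its log2FC was 0.72 (SE 0.40, edgeR unadjusted p = 0.103). With the block Nos1 had an unadjusted p-value of 0.0419 in edgeR (log2FC 0.71, adjusted p = 0.730) and was then the 1 gene of the 8 tested past both thresholds, against 4.39% of all genes in that fit. The VIP receptors had few reads, with at most 4 counts of Vipr1 and 26 of Vipr2 in any library.

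Over the same-numbered pairs, Nrtn, Chrm1 and Vip were higher in AMD3100 in all 3, as were 15.7% of all genes tested, and Ret was lower in all 3, as were 14.6%. These directions are given as a description, with no test. By replicate number, Ret, Nrtn, Chrm1 and Vip had the lowest library of each group in replicate 3, as did 25.5% of all genes tested, and Phox2a and Tubb3 the highest, as did 27.9%. For Nrtn, replicate 3 was at 0.453 times the mean of replicates 1 and 2 in control and at 0.413 times in AMD3100. For Tubb3 it was at 1.54 and 2.83 times. Hand2 and Gfra2 had no such order in both groups.

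Markers of other cell types also differed by replicate number. The summed level of 8 skeletal muscle markers, of which Myog was the most abundant, was 315, 334 and 1357 CPM in control and 216, 173 and 1851 CPM in AMD3100. That of 8 mesenchymal markers, led by Col3a1, was 2989, 2997 and 1516 CPM in control and 2897, 2938 and 1376 CPM in AMD3100. The replicate 3 libraries were far above the others in muscle markers and below them in mesenchymal markers, in both groups. Of the 8 mesenchymal markers, 2 had a higher and 6 a lower fitted level in AMD3100. In all 3 same-numbered pairs 4 were lower, as were 14.6% of all genes tested. In edgeR 0 had an unadjusted p-value under 0.05 without the block and 1 with it, against 1.68% and 6.66% of all genes. The epithelium is the source of neurturin and carries M1 receptors, and its 9 markers, of which Krt15 made up 55.6%, summed to 2146, 2129 and 1470 CPM in control and 2579, 2251 and 3457 CPM in AMD3100. Every AMD3100 library was above every control library in this sum, but without Krt15, which was tried after the data had been seen, the sums were 1105, 1118 and 582 CPM in control and 1213, 1235 and 985 CPM in AMD3100, and the groups overlapped. Of the 9 markers, 0 passed an unadjusted p-value of 0.05 without the block and 3 with it, where 6.66% of all genes did with the block. The 4 endothelial markers summed to at most 42.5 CPM in any library, and Tek had 0 counts in control replicate 1 and AMD3100 replicate 2. The 4 macrophage markers, led by C1qa, summed to 237 CPM in control replicate 3 and 165 CPM in AMD3100 replicate 3, against at most 81.0 CPM in the others. The 4 erythroid markers, led by Hba-a1, were highest in control replicate 2, at 13705 CPM. The part of the tissue composition of the tubes in the values of the 8 genes was not tested.

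**Figure D5:**
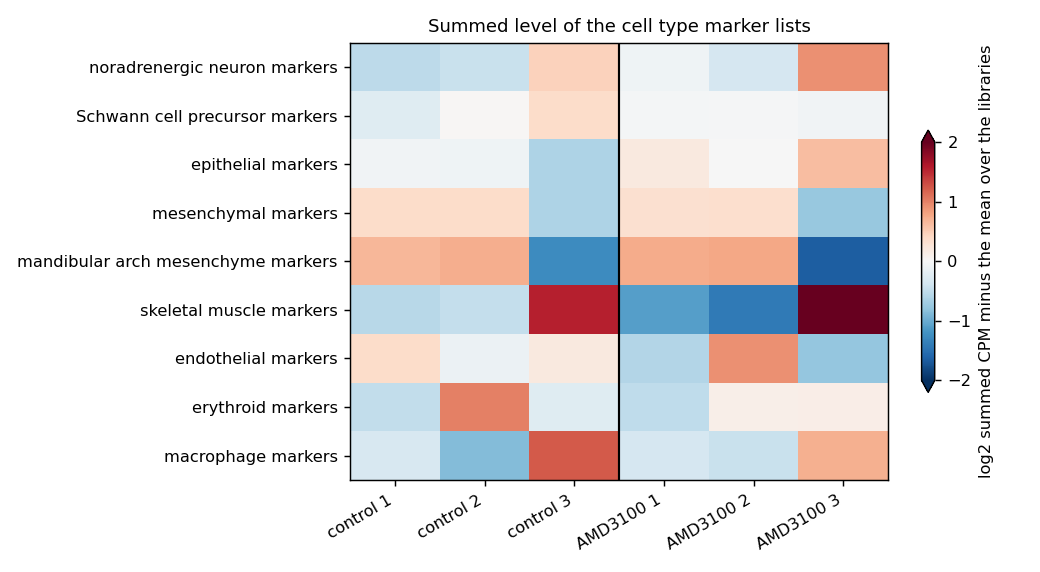
Summed CPM of 9 cell type marker lists (rows) in the 6 libraries (columns), as log2 minus the mean of each list over the libraries, cut at -2 and 2. Muscle and macrophage markers are high and mesenchymal and arch markers low in both replicate 3 libraries.

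The glia of the ganglion were read from markers of Schwann cell precursors, the cells from which parasympathetic neurons can arise. Of 10 such genes, 7 were tested, and Fabp7, a fatty acid binding protein of glial precursors, was the only gene of any list past both thresholds in edgeR without the block, where 1.68% of all genes tested passed and 1.28% with a lower level. It stood at 12.1, 16.9 and 47.2 CPM in control and at 5.53, 5.44 and 10.7 CPM in AMD3100-treated eSMGs. Every AMD3100 library was below every control library, as for 4.17% of all genes tested, and control replicate 3 was by far the highest. The log2FC was -1.82 (SE 0.58), with an unadjusted p of 0.0126 and an adjusted p of 1.0 in edgeR, and with the block it was -1.64, with an unadjusted p of 0.000791 and an adjusted p of 0.235 in edgeR. Without control replicate 3 it was -1.0, with an unadjusted p-value of 0.0948 in edgeR, and with replicates 1 and 2 only it was -1.41 (edgeR unadjusted p = 0.0280). Sox10, which marks these cells and also the gland epithelium, did not share this pattern, with a log2FC of -0.05 (SE 0.72). Erbb3, Cdh19 and Gfap, which also mark glia, had at most 12, 3 and 1 counts in any library.

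Of 10 neurotrophin and neuregulin genes, 8 were tested, 3 with a higher and 5 with a lower fitted level in AMD3100, and 0 passed an unadjusted p-value of 0.05. Bdnf, the brain-derived neurotrophic factor, was higher in AMD3100 in all 3 pairs, but the groups overlapped, with a log2FC of 0.86 (SE 0.67). Ntrk2, its receptor, had a log2FC of -0.15 (SE 0.30).

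The target of the treatment was read last. Cxcr4 was at 23.2 ± 11.1 CPM in control and 16.3 ± 1.36 CPM in AMD3100-treated eSMGs, with a log2FC of -0.50 (SE 0.44, edgeR unadjusted p = 0.284). Cxcl12, its ligand, was at 132 ± 37.2 and 100.4 ± 21.7 CPM, with a log2FC of -0.39 (SE 0.32, edgeR unadjusted p = 0.249). An antagonist of the receptor need not change its mRNA, so that these values do not check the labels.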

How the data were processed

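Per the labels, RNA of whole eSMGs was made into 6 libraries with a QuantSeq 3′ mRNA kit. The authors deposited raw counts of reads per gene symbol, made from 50-base single reads. The submitters' processing notes name Bowtie2, edgeR and mm10. Versions, the annotation and the use of strand are not given in the sources used here. Of 23282 lines per file, 22 that repeated a symbol were left out, and 18307 of 23260 genes had a count. Rn45s, a ribosomal RNA gene, took between 16.2% and 32.5% of the counts, and its effect was tried as an alternative.

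Counts were fitted with edgeR 4.0.16 (TMM, filterByExpr, quasi-likelihood test) in R 4.3.3, with no covariate as in the study's own comparison of the groups. The study's per-gene test after quantile normalization was replaced by this edgeR test, and the thresholds given in its text, a fold change of 1.5 and an unadjusted 0.05, were kept, although a legend of the study states a larger fold change for the same genes. The biological coefficient of variation was 0.579. Single values were also compared with exact two-sided permutation tests of log2(CPM + 0.5). DESeq2 1.42.0, limma-voom 3.58.1 after quantile normalization, upper quartile normalization, other filters, robust estimation, the replicate number as a block, and leaving out each library were alternatives. The replicate numbers come from the labels, which state no pairing. Deviations from the group means correlated at 0.185, 0.171 and 0.584 within numbers 1, 2 and 3. Control replicate 2 and AMD3100 replicate 1 also did at 0.198, and control replicate 1 and AMD3100 replicate 2 at 0.146. Such deviations cancel out within each group, so a replicate 3 that stands apart in both makes the others correlate. These values cannot show that replicates 1 and 2 were paired by number. On data simulated with the spread of the real libraries (13173 genes, 200 changed by 4-fold), edgeR called 64 of the 200 with 4 false calls.

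The members and lists were chosen with earlier results of these data known. The text names the 8 genes and, from each list, genes past both thresholds, the 3 with the highest mean CPM and the 2 with the largest fitted fold change among those tested, or a part of these. Some listed genes are not reported here. It also names Cxcr4, Cxcl12 and the nearest profiles among genes of at least 5 CPM on average. Genes named outside that rule, such as Gap43, Chat, Chrnb4, Nefh, Gdnf, Artn, Pspn, Th, Vipr1, Erbb3, Cdh19, Gfap, Tek and the overlapping Inppl1 and Mdk, were chosen after their values were seen. Shared reads were sought with minimap2 2.31-r1302 on NCBIM37 with GENCODE vM1, and no coordinates of that build are given. Coordinates and promoters are from RefSeq on GRCm38.p6, the assembly of mm10.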

Additional observations from a re-analysis of the deposited data

How the results depend on the processing

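In all alternatives run, the adjusted p-value of each of the 8 genes stayed above 0.05. At an adjusted p-value under 0.05, edgeR called 0 of all genes and 0 with each library left out, DESeq2 called 5, the replicate block 3, and replicates 1 and 2 only 0 without and 10 with the block. The count of 228 genes past both thresholds (fold change 1.5, unadjusted p of 0.05 in edgeR) became 598 with the replicate block, 613 with replicates 1 and 2 only, 661 with these and the block, and 163 to 547 with each library left out. Hand2 was the one member past both thresholds in any alternative, and only with replicates 1 and 2 (-0.76 without and -0.77 with the block) and without control replicate 3. Hand2, Ret, Chrm1 and Vip kept their direction throughout. The log2 fold change of Tubb3 was -0.22 with replicates 1 and 2 only and -0.23 with the replicate block on these. Leaving out each library gave -0.47 to 0.56 for Tubb3, -0.083 to 0.40 for Phox2a, -0.56 to 0.25 for Gfra2 (0.04 without AMD3100 replicate 1 and 0.25 without AMD3100 replicate 2) and -0.054 to 0.73 for Nrtn. The median of the neurotrophin and neuregulin list turned from -0.12 to 0.13 with at least 10 counts in every library, 0.12 with limma-voom and 0.10 with the replicate block, and was -0.34 to -0.061 with each library left out. Leaving out each library also gave medians of -0.16 to 0.26 for the 8 genes, -0.36 to 0.060 for autonomic transcription factors, -0.47 to 0.48 for β-tubulins, -0.14 to 0.61 for cholinergic genes, -0.12 to 0.24 for pan-neuronal genes (-0.18 and -0.22 with replicates 1 and 2 only, without and with the block), -0.060 to 0.34 for the GDNF family, -0.25 to 1.19 for mandibular arch markers and 0.062 to 0.65 for neuropeptides. The replicate block changed the call of no member. Chrm1 could not be tested with at least 10 counts in every library. The causes were not tested. Ret had at most 91 and Chrm1 at most 68 counts in any library.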
